A study of Mus musculus with 24 samples.

Results

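The genes of the LIF, gp130 and Stat3 pathway were followed through the differentiation of male mouse embryonic stem cells (mESCs). The 8 members are *Lif*, *Lifr*, *Il6st*, *Jak1*, *Stat3*, *Socs3*, *Pim1* and *Gbx2*, chosen by name from the 25965 entries of the expression table. The members and the gene lists were chosen with earlier results of these data known. Their counts and medians beside those of all genes are therefore descriptions. All 8 passed the filter on low values, a mean of at least 0 on the log2 scale of rpm (the reads of a gene for each 1000000 reads of its library), with 12 reads in the library lowest for *Lif*, 16 for *Gbx2* and at least 65 for each of the other members. In mm10 the table places *Lif* at chr11:4257557-4272514, *Lifr* at chr15:7129559-7197489, *Il6st* at chr13:112475008-112506860 and *Pim1* at chr17:29490812-29495445, all on the plus strand. On the minus strand it places *Jak1* at chr4:101152367-101265282, *Stat3* at chr11:100885098-100939540, *Socs3* at chr11:117966079-117970047 and *Gbx2* at chr1:89927962-89933290. Values are for the whole gene.

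C57/Bl6 mESCs grown with 2 inhibitors and LIF (2i+LIF) were moved stepwise into a serum medium, DME HiHi, whose listed ingredients include neither. At day 2 they received a virus carrying a short hairpin RNA, puromycin followed on day 3, and libraries were made from days 4, 5, 6 and 7. Hairpins Smarcc1.6 and Smarcc1.7 target *Smarcc1*, hairpins Smarca4.4 and Smarca4.6 target *Smarca4*, and both genes encode subunits of the BAF chromatin remodelling complex. The control is a nonsilencing hairpin (Nons). All groups share strain, sex, media, virus and selection. The table used here has 1 library per hairpin and day, giving 8 *Smarcc1* knockdown, 8 *Smarca4* knockdown and 4 Nons libraries in 5 culture series. A genotype label gives the Smarca4 libraries as a Smarcc knockdown, and the sample titles were followed here.

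Leukaemia inhibitory factor (LIF) binds a receptor made of Lifr and gp130, the product of *Il6st*, and the attached Jak kinases phosphorylate Stat3. Stat3 then enters the nucleus and switches on target genes, among them *Socs3*, whose product shuts the receptor off again. In mESCs this route is known for holding back differentiation, which is why LIF is added to their culture media.

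Library totals ran from 6829596 reads (Smarca4.4, day 5) over 15717152 in the second smallest to 27472885 in the largest. As a check of the labels, the targeted gene stood below the Nons library of its day in each of the 8 libraries per knockdown. *Smarcc1* kept 23.7% to 60.1% of its Nons level and *Smarca4* kept 21.6% to 55.3%. Of the pluripotency markers, *Pou5f1* had a median of 1406 rpm on day 4 and 227 rpm on day 7. Of the blood markers, *Ptprc* never exceeded 0.132 rpm. The comparisons used a single Nons library a day, of replicate 1 (replicate 2 in the labels was not analysed here), so the spread in every test is that between the hairpins of a gene. Nothing in the labels says that the hairpins were grown as separate experiments, and p-values then measure only the spread between these libraries, which may be technical. In bulk RNA, fewer cells of a type and less RNA per cell cannot be told apart.

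The first 250 bases upstream of the start site are shown for the members that passed the test against Nons in either knockdown, read from RefSeq on GRCm38.p6, the assembly also called mm10. All promoters of the RefSeq table (250 bases before to 50 after the start, 32851 windows) were searched on both strands for TTCNNNGAA, the spacing STAT3 is known to bind, and for the same arms with 1 more base between them. Capitals mark a match. *Lifr* has a further window, chr15:7140292-7140541 on the plus strand, which held neither motif and is not shown. The windows are chr15:7129322-7129571 on the plus strand for *Lifr*, chr13:112463820-112464069 on the plus strand for *Il6st*, chr11:117969367-117969616 on the minus strand for *Socs3* and chr1:89931177-89931426 on the minus strand for *Gbx2*.
Lifr: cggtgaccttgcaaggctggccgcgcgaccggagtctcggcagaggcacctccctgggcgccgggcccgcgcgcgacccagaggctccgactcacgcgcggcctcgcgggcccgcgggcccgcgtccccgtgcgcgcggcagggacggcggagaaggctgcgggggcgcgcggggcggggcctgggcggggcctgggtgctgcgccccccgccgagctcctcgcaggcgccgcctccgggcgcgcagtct
Il6st: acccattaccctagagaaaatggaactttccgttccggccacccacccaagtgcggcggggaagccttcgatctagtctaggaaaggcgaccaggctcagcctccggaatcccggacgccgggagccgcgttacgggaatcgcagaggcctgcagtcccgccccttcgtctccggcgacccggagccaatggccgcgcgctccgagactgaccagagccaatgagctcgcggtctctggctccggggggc
Socs3: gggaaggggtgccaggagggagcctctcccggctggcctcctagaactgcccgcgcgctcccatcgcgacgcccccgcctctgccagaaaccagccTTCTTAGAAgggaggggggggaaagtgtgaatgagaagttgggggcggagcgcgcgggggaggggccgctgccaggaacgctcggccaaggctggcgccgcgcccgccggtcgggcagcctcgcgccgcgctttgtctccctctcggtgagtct
Gbx2: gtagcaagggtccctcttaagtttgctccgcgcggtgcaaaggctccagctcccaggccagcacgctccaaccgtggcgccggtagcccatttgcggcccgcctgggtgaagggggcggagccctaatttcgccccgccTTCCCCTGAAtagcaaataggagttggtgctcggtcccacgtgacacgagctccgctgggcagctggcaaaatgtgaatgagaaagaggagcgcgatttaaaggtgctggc

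Among the 10 windows of the 8 members, 1 held the first motif, that of *Socs3*, with TTCTTAGAA beginning at -154 from the start. This motif is found in 8.30% of all windows. The second was in 1 member window, that of *Gbx2*, with TTCCCCTGAA beginning at -111, against 6.95% of all windows. The *Socs3* and *Gbx2* windows lie inside the span the expression table gives each gene, and that of *Gbx2* also lies inside the overlapping gene *D130058E05Rik*. The *Il6st* window lies outside the span given for *Il6st*. A match is a run of letters and not a measured binding site.

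The 8 members took different paths with differentiation, and their levels in every library are drawn in the plot by day. *Gbx2* and *Lifr* fell between day 4 and day 7, *Lif*, *Pim1*, *Stat3*, *Jak1* and *Socs3* rose, and *Il6st* dipped on day 5 and returned. Day 5 was also the lowest day for *Jak1* in 5 of 5 series, *Socs3* in 4, and *Lif* and *Stat3* in 3 each. Their fitted log2 changes from day 4 to day 5 were -0.24, -0.47, -0.62 and -0.45, and none was called. In the fit, which averages Nons and both knockdowns with equal weight, 7 of 8 members changed between days 4 and 7, where 64.5% of the 13296 genes tested did. The 5 members that rose stand against 35.7% of genes, and the 2 that fell against 28.8%. The members' median log2 change was 0.76, against 0.08 over all genes tested.

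**Figure D1:**
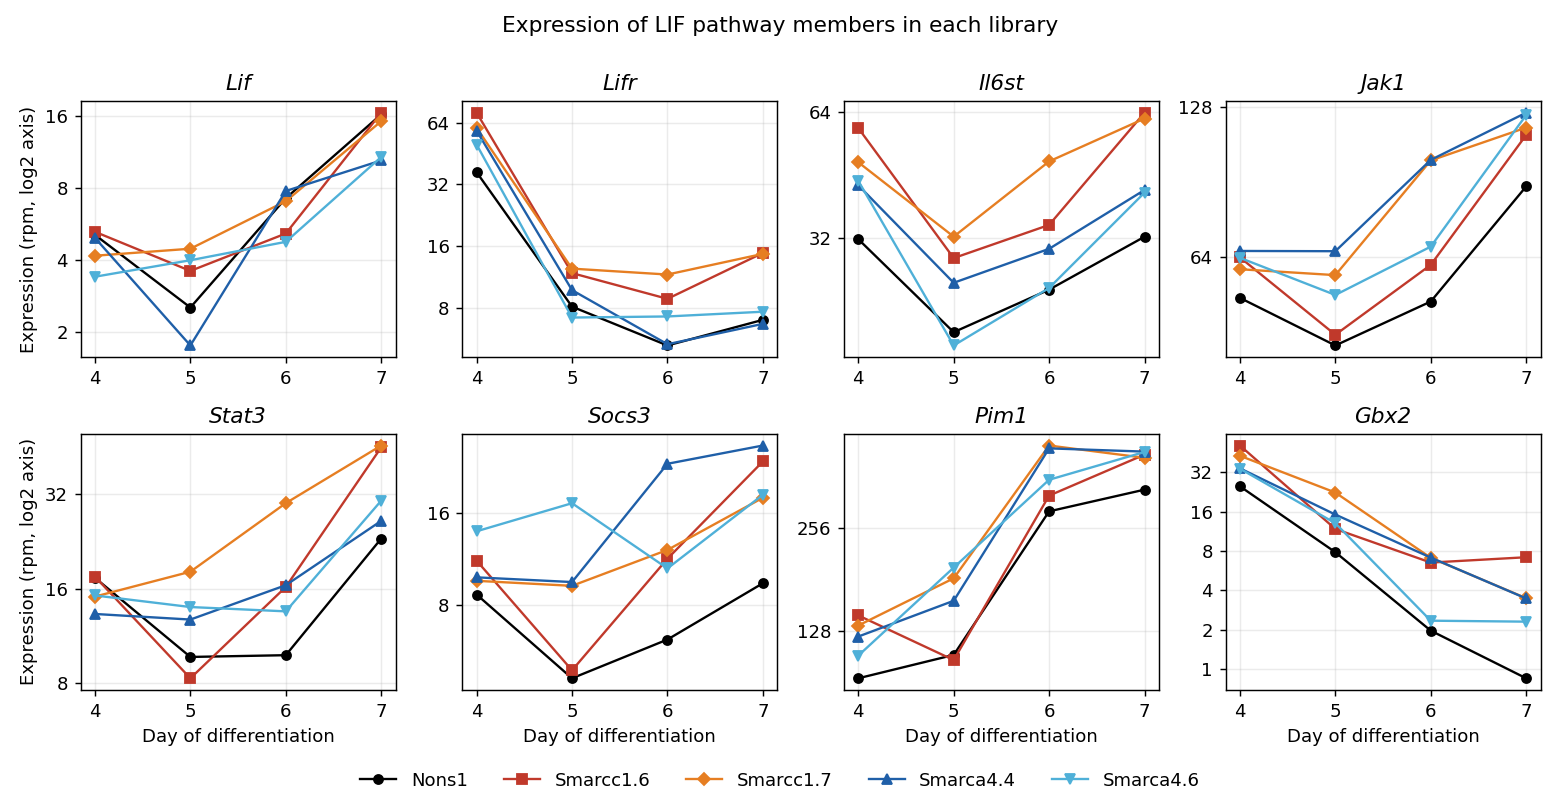
Expression of each member (rpm, on a log2 axis with its own range per panel) on days 4 to 7, with 1 line per culture series and 1 point per library. *Lifr* drops between days 4 and 5 in 5 of 5 series and *Gbx2* is lower on day 7 than on day 4 in 5 of 5.

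*Lifr* encodes the receptor chain that joins gp130 in binding LIF. On days 4, 5, 6 and 7 it was measured at 36.7, 8.15, 5.28 and 7.03 rpm in Nons. With Smarcc1.6 it was at 71.4, 11.9, 8.90 and 14.9 rpm, and with Smarcc1.7 at 60.3, 12.5, 11.7 and 14.7 rpm. The day 4 libraries stood above all libraries of later days in each series. With Smarca4.4 it was at 58.4, 9.81, 5.35 and 6.72 rpm, and with Smarca4.6 at 49.98, 7.22, 7.31 and 7.70 rpm. Most of the fall came in the first step, with a log2 change of -2.43 (SE 0.158, adjusted *p* = 1.00e-06, limma) from day 4 to day 5, where 38.7% of genes tested changed. From day 5 to day 6 *Lifr* was lower in 4 of 5 series, by -0.44, which just missed the threshold (adjusted *p* = 0.0503, limma). That step was called after centring on the median gene (-0.48, adjusted *p* = 0.0415), after quantile normalization (-0.55, 0.0292) and with culture series as a replicate block (0.034). Day 7 stood 5.58-fold below day 4. From day 6 to day 7 *Lifr* was higher in 5 of 5 series, by 0.38 on the log2 scale, which missed the threshold (adjusted *p* = 0.0826, limma).

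*Gbx2*, a homeobox transcription factor and a known LIF target in mESCs, was lower on day 7 than on day 4 in 5 of 5 series. In Nons it was at 25.04, 7.85, 1.97 and 0.853 rpm on days 4 to 7. With Smarcc1.6 it was at 51.3, 11.8, 6.54 and 7.18 rpm, and with Smarcc1.7 at 42.9, 22.4, 7.11 and 3.49 rpm. With Smarca4.4 it was at 34.4, 15.2, 7.14 and 3.48 rpm, and with Smarca4.6 at 34.2, 13.1, 2.35 and 2.31 rpm. Nons was the lowest series on every day, and the share of all genes with this order was not counted. The fall from day 4 to day 7 was 14.9-fold (log2 change -3.90, SE 0.319, adjusted *p* = 3.49e-07, limma) and ranged from 7.15-fold to 29.4-fold between series. It was called from day 4 to 5 (-1.49) and from day 5 to 6 (-1.68), where 32.3% of genes changed. Its last step, -0.73, had an adjusted *p* of 0.1005 (limma), or 0.0271 with each library centred on its median gene. The table's span of *Gbx2* holds all 1629 bases of *D130058E05Rik*, a transcript of the other strand (chr1:89930234-89931862). As the use of strand in counting is not stated, reads of the pair cannot be told apart. *D130058E05Rik* ranged from 0.533 to 14.8 rpm and its log2 change from day 4 to day 7 was -3.08 (adjusted *p* = 2.20e-06, limma).

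*Il6st* encodes gp130, the signalling chain shared by the receptors of LIF and its relatives. In Nons it was at 31.8, 19.1, 24.1 and 32.2 rpm on days 4 to 7. With Smarcc1.6 it was at 58.6, 28.7, 34.4 and 63.7 rpm, and with Smarcc1.7 at 48.5, 32.3, 48.7 and 61.7 rpm. Day 5 was the lowest day in all 5 series. With Smarca4.4 it was at 42.8, 25.04, 30.2 and 41.7 rpm, and with Smarca4.6 at 43.8, 17.7, 24.3 and 41.1 rpm. The fall to day 5 was 1.82-fold (log2 change -0.86, SE 0.149, adjusted *p* = 0.000822, limma). The rise from day 6 to day 7 was 0.55 (SE 0.149, adjusted *p* = 0.0192, limma), where 27.5% of genes changed; it was 0.35 and no longer called after centring on the median gene, and it also lost its call without Smarcc1.6 (adjusted *p* = 0.0960), Smarca4.4 (0.0534) or Smarca4.6 (0.108). Day 7 differed from day 4 by 0.06 (95% interval -0.26 to 0.39), and by -0.11 after centring.

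**Figure D2:**
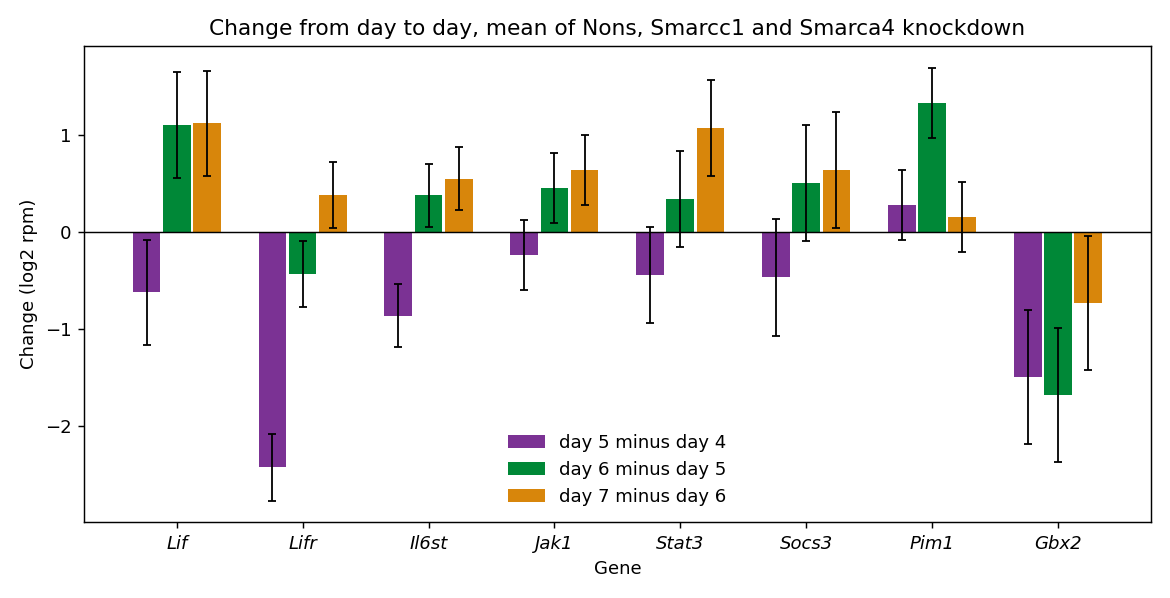
Change in log2 rpm from each day to the next for the 8 members, as the mean of Nons, *Smarcc1* knockdown and *Smarca4* knockdown, with bars for the fitted change and lines for its 95% interval. The step from day 4 to day 5 holds most of the fall of *Lifr*, and *Pim1* has its rise between days 5 and 6.

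*Lif*, *Jak1* and *Stat3* rose from day 4 to day 7. *Lif* itself was at 3.41 to 5.25 rpm on day 4 and at 10.4 to 16.5 rpm on day 7. Its rise was 3.03-fold (log2 change 1.601, SE 0.250, adjusted *p* = 0.000101, limma) and came in the last 2 steps, 1.10 and 1.12. They followed a change of -0.62 to day 5 that was not called (adjusted *p* = 0.0660, limma), but was after quantile normalization (-0.75, 0.0266). *Jak1*, the kinase bound to gp130, was at 53.0 to 65.8 rpm on day 4 and 88.7 to 125 rpm on day 7 and rose by 0.85 (SE 0.167, adjusted *p* = 0.000603, limma). *Stat3*, the transcription factor of the pathway, was at 13.3 to 17.5 rpm on day 4 and 23.1 to 45.9 rpm on day 7. Its rise was 0.97 (SE 0.228, adjusted *p* = 0.00233, limma). The steps were -0.45 to day 5 and 0.34 to day 6, neither called, and 1.07 to day 7. In the table the span of *Jak1* shares 4 bases with that of *Raver2* and the span of *Stat3* shares 72 bases with that of *Stat5a*, so reads there are uncertain. The last steps of *Lif*, *Jak1* and *Stat3* were not called in some fits without 1 hairpin. Without Smarcc1.6 the adjusted *p* was 0.0548 for *Lif* and 0.0646 for *Jak1*, and without Smarca4.6 it was 0.126 for *Jak1* and 0.0943 for *Stat3*.

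Both remaining targets of Stat3 rose as well. *Pim1*, which encodes a serine/threonine kinase that favours survival, was at 93.4 to 143 rpm on day 4, 106 to 197 rpm on day 5, 287 to 447 rpm on day 6 and 332 to 429 rpm on day 7. No library of days 6 and 7 overlapped those of days 4 and 5, and the share of all genes that separate in this way was not counted. The rise from day 4 to day 7 was 3.41-fold (log2 change 1.77, SE 0.167, adjusted *p* = 1.21e-06, limma), with 1.33 between days 5 and 6. *Socs3*, the feedback inhibitor, was higher on day 7 than on day 4 in 5 of 5 series, by 1.09-fold to 2.70-fold. Its mean change of 0.68 (SE 0.277, adjusted *p* = 0.0473, limma) lay close to the threshold. It lost the call after centring (0.50, adjusted *p* = 0.0869), after quantile normalization (0.38, 0.180) and with a filter at 10 rpm (0.0531), as well as without Smarcc1.6 (0.102), Smarcc1.7 (0.0782) or Smarca4.4 (0.114).

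Set against the length of their exons in GENCODE, the members differed widely in level. The GENCODE spans of *Lifr*, *Il6st*, *Pim1* and *Gbx2* differ from those of the expression table, so the lengths may not match the counted exons. The order of members close in level is therefore uncertain. *Pim1* had the highest median over the 20 libraries, 71.9 rpm per kb of exon, and *Jak1* followed at 8.97. *Socs3* (3.76 rpm per kb), *Gbx2* (3.45) and *Il6st* (3.003) came next, and *Stat3* (1.71), *Lif* (1.18) and *Lifr* (0.997) were lowest. This order is over all days and differed between them. On day 4 the mean of *Gbx2* (17.3 rpm per kb) was above that of *Jak1* (8.50). The day 4 mean of *Lifr* (5.14) was above those of *Il6st*, *Socs3*, *Stat3* and *Lif*. The range of *Pim1*, 27.8 to 133 rpm per kb, did not overlap any other. From *Jak1* (5.89 to 17.2) down to *Lifr* (0.490 to 6.63), each member's range over libraries overlapped that of the next.

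*Smarcc1* knockdown cultures held more RNA of both LIF receptor chains and of *Gbx2* than Nons did. The question of this comparison is what loss of a BAF subunit changes in differentiating cells. *Lifr*, *Il6st* and *Gbx2* were higher, and 3 of 8 members passed the threshold, where 10.6% of the 13296 genes tested did and 7.54% did as higher. The members' median log2 difference was 0.66, against 0.06 over all genes. At an unadjusted *p* under 0.05, 7 of 8 members were higher and 0 lower (limma, and likewise limma-voom), where 15.4% of all genes were higher and 7.34% lower (limma). At the adjusted threshold 3.08% of genes were called as lower. As the members were chosen with earlier results known, these counts describe them and do not test them as a set.

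From the library values above, *Lifr* was higher than same-day Nons in 8 of 8 *Smarcc1* knockdown libraries, by 1.46-fold to 2.21-fold. The mean difference was 0.86 (SE 0.145, adjusted *p* = 0.00202, limma), or 1.81-fold with a 95% interval of 1.46 to 2.25. *Il6st* was higher in 8 of 8, by 1.43-fold to 2.02-fold, with a mean of 0.78 (SE 0.137, adjusted *p* = 0.00254, limma) or 1.72-fold. Both receptor chains stood above Nons on each day and with each hairpin. *Gbx2* was higher in 8 of 8, by 1.51-fold to 8.43-fold, with a mean of 1.58 (SE 0.293, adjusted *p* = 0.00391, limma) or 2.98-fold. *D130058E05Rik*, which shares its locus, was higher by 1.29 (SE 0.286, adjusted *p* = 0.0112, limma). *Socs3* and *Jak1* also stood above Nons in 8 of 8 libraries, as 8.69% of all genes tested did, but were not called. All 3 calls held in every alternative fit in which the gene was tested, with an adjusted *p* of at most 0.0296 for *Lifr*, 0.0259 for *Il6st* and 0.0352 for *Gbx2*.

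The signalling members were not called in *Smarcc1* knockdown. *Stat3* was higher in 6 of 8 libraries. It was at 17.3, 9.67, 9.80 and 23.1 rpm in Nons on days 4 to 7, at 17.5, 8.26, 16.2 and 45.3 rpm with Smarcc1.6 and at 15.1, 18.1, 30.02 and 45.9 rpm with Smarcc1.7. On days 6 and 7 both hairpins lay above Nons, and on days 4 and 5 they lay on either side. The mean difference was 0.60 (SE 0.209, adjusted *p* = 0.0957, limma). *Socs3* differed by 0.71 (adjusted *p* = 0.103, limma), *Pim1* by 0.41 (0.126), *Jak1* by 0.37 (0.172) and *Lif* by 0.06 (0.909). Without Smarcc1.6, *Stat3* (0.83, adjusted *p* = 0.0156) and *Pim1* (0.55, 0.0417) were called too.

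**Figure D3:**
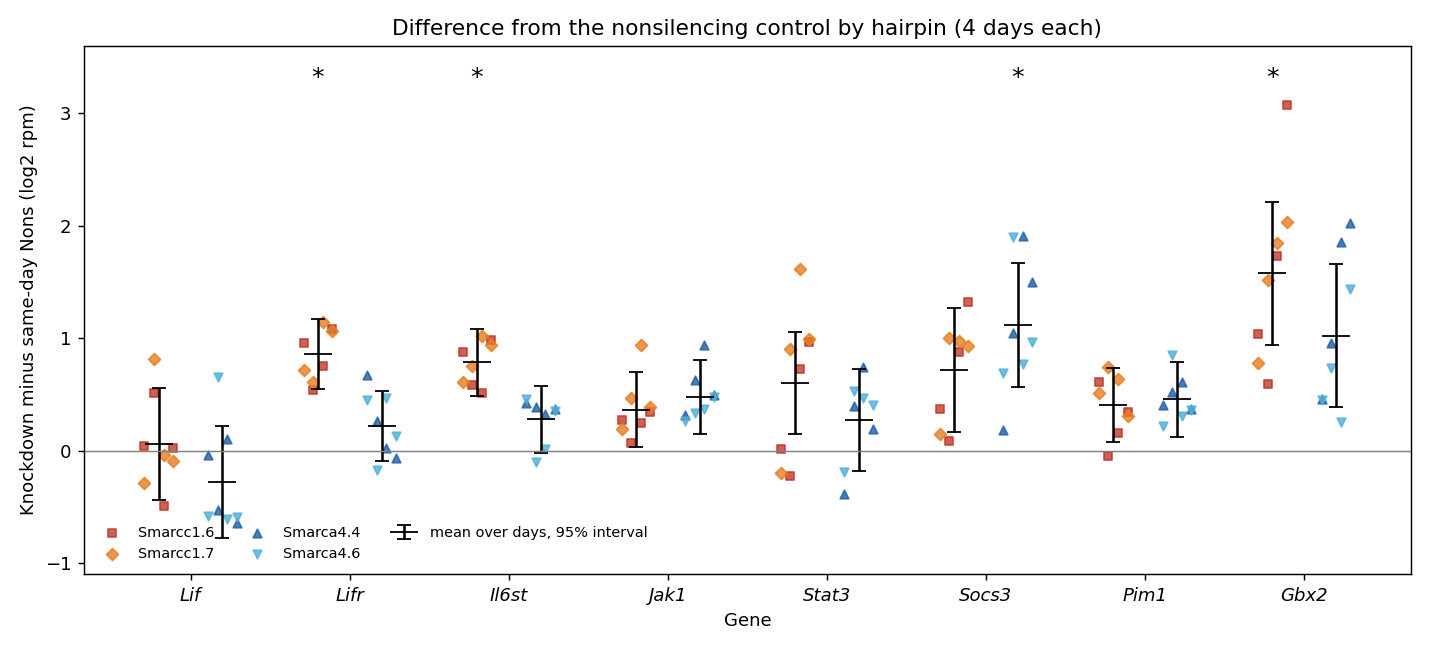
Difference in log2 rpm between each knockdown library and the Nons library of its day, for the 8 members, with *Smarcc1* knockdown to the left and *Smarca4* knockdown to the right of each gene and points in order of day. Black lines give the fitted mean and its 95% interval and a star an adjusted *p* under 0.05. All 8 *Smarcc1* knockdown points lie above 0 for *Lifr*, *Il6st* and *Gbx2*.

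In *Smarca4* knockdown the feedback inhibitor alone was called. *Socs3* was higher, and 1 of 8 members passed, where 6.71% of genes tested did, 4.75% as higher and 1.96% as lower. The members' median difference was 0.37, against 0.06 over all genes. The same 4 Nons libraries serve both knockdowns, so the values are given side by side. On days 4 to 7 *Socs3* was at 8.66, 4.61, 6.17 and 9.43 rpm in Nons. With Smarca4.4 it was at 9.86, 9.52, 23.2 and 26.6 rpm and with Smarca4.6 at 13.95, 17.2, 10.5 and 18.4 rpm. Each of the 8 libraries was above its Nons library, by 1.14-fold to 3.76-fold, and the hairpins differed in the day of the largest gap. With Smarcc1.6 *Socs3* was at 11.2, 4.89, 11.3 and 23.6 rpm and with Smarcc1.7 at 9.61, 9.25, 12.1 and 18.0 rpm. The mean difference in *Smarca4* knockdown was 1.12 (SE 0.255, adjusted *p* = 0.0195, limma), or 2.17-fold with a 95% interval of 1.48 to 3.19. It was not called when culture series entered as a replicate block (adjusted *p* = 0.163), nor without Smarca4.4 (0.0556) or Smarca4.6 (0.0569).

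*Gbx2*, *Jak1* and *Pim1* were also above Nons in 8 of 8 *Smarca4* knockdown libraries, as 9.85% of genes tested were, and none passed the threshold. *Gbx2* differed by 1.02 (SE 0.293, adjusted *p* = 0.0582, limma), and by 0.95 with an adjusted *p* of 0.0437 after centring on the median gene. *D130058E05Rik* differed by 0.71 (adjusted *p* = 0.182, limma). *Jak1* differed by 0.48 (adjusted *p* = 0.0888, limma) and *Pim1* by 0.46 (0.106). The receptor chains were not called, and differed for *Il6st* by 0.28 (95% interval -0.02 to 0.58) and for *Lifr* by 0.22 (95% interval -0.09 to 0.53). *Stat3* differed by 0.27 (adjusted *p* = 0.530, limma) and *Lif* by -0.28 (0.558).

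Set directly against each other, with no Nons library involved, the knockdowns differed in the receptor chains. *Lifr* and *Il6st* passed the threshold, 2 of 8 members, where 4.09% of genes tested did. *Lifr* was 1.56-fold higher in *Smarcc1* than in *Smarca4* knockdown (log2 difference 0.64, SE 0.118, adjusted *p* = 0.0100, limma). *Il6st* was 1.42-fold higher (0.51, SE 0.112, adjusted *p* = 0.0235, limma). On each of the 4 days both *Smarcc1* hairpins lay above both *Smarca4* hairpins for each gene. These are the same values that gave the calls, and the share of all genes with this order was not counted. The calls were lost with the replicate block (adjusted *p* = 0.1003 for *Lifr* and 0.166 for *Il6st*) and without any 1 of the 4 hairpins (0.0686 to 0.107 and 0.0867 to 0.297). *Socs3* differed by -0.41 (95% interval -0.86 to 0.04) and *Gbx2* by 0.55 (95% interval 0.04 to 1.07, adjusted *p* = 0.271, limma).

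Whether a difference from Nons widened or narrowed over the days was tested as a slope, and 0 of 8 members passed for either knockdown (limma), where 0.94% of genes did for *Smarcc1* and 0.135% for *Smarca4*. *Gbx2* had the steepest slope among the members in each knockdown, 0.57 log2 units per day in *Smarcc1* knockdown and 0.41 in *Smarca4* knockdown (SE 0.262 for each). *Stat3* in *Smarcc1* knockdown had 0.40 (SE 0.187). At an unadjusted *p* under 0.05 there were 0 for either (limma), where 9.62% of genes passed for *Smarcc1* and 5.2% for *Smarca4*, and 1 for *Smarcc1* in limma-voom, which called 0 as well. On single days, with 1 Nons library each, 1 call was made among the members. Of all genes, 0.0%, 0.143%, 2.84% and 4.35% were called on days 4, 5, 6 and 7 in *Smarcc1* knockdown and 0.0%, 0.0%, 0.97% and 1.59% in *Smarca4* knockdown. *Gbx2* on day 7 was higher in *Smarcc1* knockdown by 2.55 (SE 0.587, adjusted *p* = 0.0274, limma), and this rests on 16 reads in the Nons library. The call was lost with 1 added to the rpm values, after quantile normalization, in limma-voom and without Smarcc1.7. Without the smallest library, which is of another day and knockdown, *Lifr* (1.07) and *Il6st* (0.96) were called on that day as well.

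Some marker lists stood above same-day Nons in most or all knockdown libraries and others did not. The part of these lists in the results was not tested. The summed rpm of the 4 neural markers was above same-day Nons in 8 of 8 *Smarcc1* knockdown libraries (32.0 to 103 rpm, Nons 16.8 to 52.8) and 7 of 8 *Smarca4* knockdown libraries (25.4 to 85.6). The 4 trophoblast markers were above in 8 of 8 of both (20.4 to 35.0 and 23.1 to 36.1 rpm, Nons 12.6 to 26.9), as were the 4 mesoderm markers (1.89 to 14.5 and 2.05 to 19.3 rpm, Nons 1.77 to 7.14). The 6 endoderm markers were above in 8 and 7 of 8 at 1.61 to 11.7 rpm (Nons 1.08 to 3.14). The 4 mesendoderm markers were above in 5 of 8 *Smarcc1* knockdown and 8 of 8 *Smarca4* knockdown libraries, at 3.51 to 13.8 rpm (Nons 4.20 to 10.2). The sum of the 5 pluripotency markers was above Nons in 6 of 8 *Smarcc1* knockdown and 2 of 8 *Smarca4* knockdown libraries. On day 7 it was 508 to 702 rpm in *Smarcc1* knockdown, 359 rpm in Nons and 326 to 331 rpm in *Smarca4* knockdown. The 4 primed epiblast markers were above Nons in 3 of 8 libraries of each knockdown (375 to 1410 and 377 to 1547 rpm, Nons 268 to 1724). The 4 fibroblast markers were above in 3 of 8 and 1 of 8, and on day 7 they summed to 58.9 to 67.8 rpm in *Smarcc1* knockdown against 29.7 rpm in Nons and 19.5 to 28.7 rpm in *Smarca4* knockdown. The 2 blood markers in the table summed to at most 1.33 rpm. Markers within a list differed in level, and some in direction over days. Among the mesoderm markers the medians of *Kdr* (4.44 to 0.266 rpm) and *Meox1* (4.94 to 0.0593 rpm) fell from day 4 to day 7. Those of *Hand1* (1.13 to 10.8 rpm) and *Tbx6* (0.0728 to 0.906 rpm) rose. Among the fibroblast markers *Postn* reached at most 2.77 rpm and *Col1a1* 60.4 rpm. Among the pluripotency markers *Zfp42* reached 50.8 rpm and *Pou5f1* 1607 rpm, and among the primed epiblast markers *Fgf5* reached 53.2 rpm and *Dnmt3b* 1349 rpm. Of the trophoblast markers *Elf5* reached at most 0.319 rpm and *Tfap2c* 31.0 rpm, of the endoderm markers *Sox17* reached 0.593 rpm and *Gata4* 7.41 rpm, of the neural markers *Neurog2* reached 0.732 rpm and *Tubb3* 88.4 rpm, and of the mesendoderm markers *Gsc* reached 0.572 rpm and *Eomes* 12.8 rpm.

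Other genes of the pathway were taken from a list of 50, of which 41 passed the filter. The ligands *Il6*, *Il11*, *Il27*, *Osm* and *Ebi3* and the receptors *Osmr*, *Il27ra*, *Lepr* and *Csf3r* were too low to be tested, with *Osmr* never above 0.503 rpm. In *Smarcc1* knockdown 4 of the 41 were higher and 0 lower, a share close to that over all genes (7.54% higher, 3.08% lower), with a median of 0.22 against 0.06. At an unadjusted *p* under 0.05, 11 were higher and 2 lower in limma (15.4% and 7.34% of all genes), and 11 and 3 in limma-voom. *Klf4*, a pluripotency factor and Stat3 target, was higher in 8 of 8 libraries. It was at 7.32, 2.63, 1.15 and 1.49 rpm in Nons, at 33.5, 4.71, 4.98 and 7.14 rpm with Smarcc1.6 and at 23.2, 5.74, 5.01 and 6.49 rpm with Smarcc1.7. Nons lay below both hairpins on every day, as it did for 8.69% of all genes tested. The mean difference of *Klf4* was 1.81 (SE 0.198, adjusted *p* = 9.95e-05, limma). *Cish*, an inhibitor induced by Stat5, was higher in 8 of 8 by 1.04 (SE 0.235, adjusted *p* = 0.0125, limma). *Bcl3*, a cofactor of NF-kappaB, was higher in 8 of 8 by 1.26 (adjusted *p* = 0.0476, limma) and the inhibitor *Socs2* in 7 of 8 by 0.43 (0.0220). The calls of *Cish*, *Bcl3* and *Socs2* were lost with the replicate block (adjusted *p* = 0.0989, 0.247 and 0.129), those of *Bcl3* and *Socs2* also after quantile normalization (0.109 and 0.0793), and that of *Klf4* held in every fit that tested it. Without 1 hairpin *Socs2* was not called in any fit (adjusted *p* 0.0654 to 0.132), *Bcl3* was not called without Smarcc1.6 (0.0764) or Smarcc1.7 (0.239), and *Cish* was not called without Smarca4.4 (0.0589) or Smarca4.6 (0.0591).

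In *Smarca4* knockdown 1 of the 41 was higher and 1 lower, where 4.75% of all genes were higher and 1.96% lower, with a median of 0.27 against 0.06 over all genes. The ligand gene *Ctf1*, which encodes cardiotrophin 1, was higher in 7 of 8 libraries by 0.91 (SE 0.176, adjusted *p* = 0.00861, limma). The receptor gene *Cntfr*, for ciliary neurotrophic factor, was lower in 8 of 8 by -1.27 (SE 0.290, adjusted *p* = 0.0203, limma), at 0.200 to 0.589 of the Nons level. The replicate block took both calls away (adjusted *p* = 0.0857 and 0.0961). So did leaving out Smarca4.6 (0.0600 and 0.206), and *Cntfr* was not called without Smarca4.4 (0.0522) either.

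Between day 4 and day 7, 14 of the 41 rose, 8 fell and 19 were not called, with a median of 0.27 against 0.08 over all genes. Of all genes, 35.7% rose and 28.8% fell. *Stat5b*, a transcription factor of the same family as Stat3, rose most (4.14, SE 0.173), followed by *Cish* (3.48, SE 0.255) and the ligand gene *Clcf1* (2.73, SE 0.400). *Pim2*, a kinase gene of the *Pim1* family, fell most (-4.16, SE 0.319), before *Myc* (-3.10, SE 0.322) and *Klf4* (-2.34, SE 0.215). Of the 14 inhibitors, 6 rose and 4 fell. Of the 9 targets, 2 rose and 3 fell. Of the 11 kinases, adaptors and other STATs, 3 rose and 1 fell, and these counts read against the same shares.

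**Figure D4:**
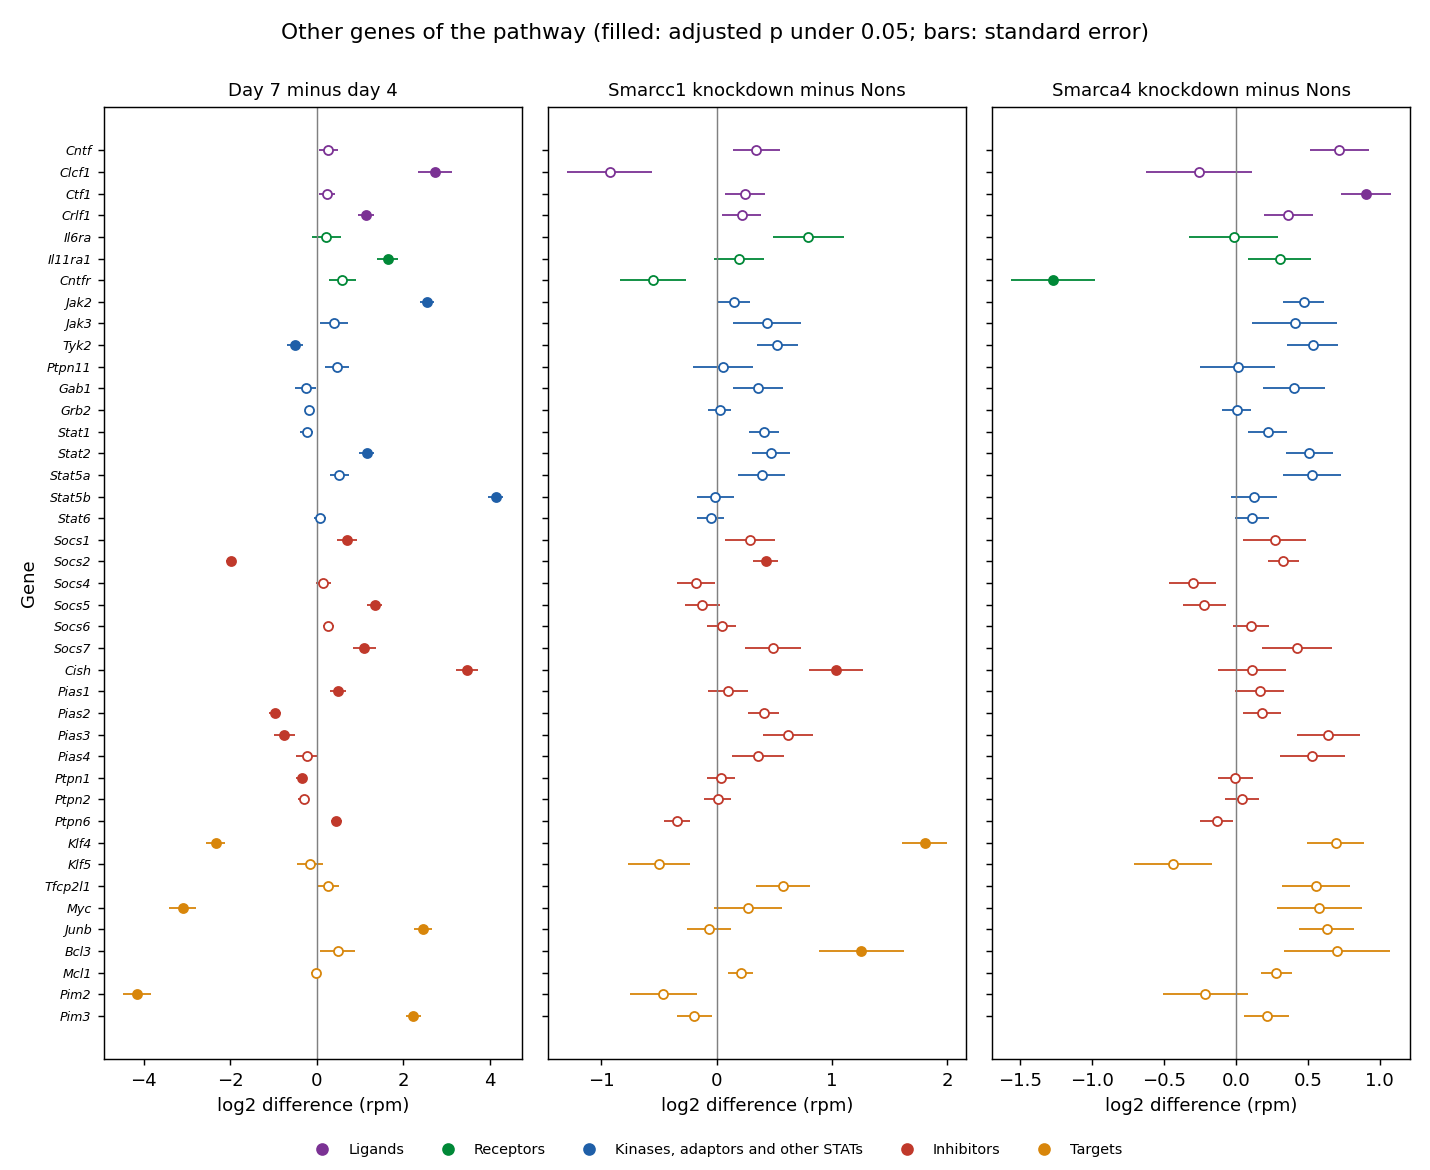
Log2 difference (rpm) of the 41 other pathway genes that were tested, coloured by role, for day 7 minus day 4 and for each knockdown minus Nons, with filled points for an adjusted *p* under 0.05 and lines for 1 SE. The range of the first panel is wider, and *Klf4* lies farthest to the right in the second.

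The genes whose pattern over the 20 libraries was most like that of each member were named by Pearson's correlation, as a description over libraries that share series and days. The closest to *Lifr* was *Mreg* (*r* = 0.979), then *Fitm2* (0.978), and to *Il6st* they were *Slain2* (0.941) and *Clock* (0.904). For *Gbx2* they were *D130058E05Rik* (0.988), which overlaps it, and *Zbtb45* (0.983). The closest to *Lif* were *Lmod1* (0.937) and *Tspan9* (0.922), to *Jak1* *Sertad2* (0.977) and *Micall1* (0.965), and to *Stat3* *Rnf8* (0.957) and *Ftsjd2* (0.952). *Socs3* had *Fchsd1* (0.937) and *Pfkfb4* (0.925), and *Pim1* had *Plekhm2* (0.971) and *Fndc5* (0.963). Among the members themselves, once the mean of each day was taken out, the receptor chains *Lifr* and *Il6st* went together most closely (*r* = 0.905 over 20 libraries), before *Il6st* and *Gbx2* (0.797). Knockdown differences were left in, and all of these genes were called as higher in *Smarcc1* knockdown. *Lif* and *Socs3*, at 0.008, were among the least alike.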

How the data were processed

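Male mESC libraries were deposited as log2 rpm per gene. Per the paper's methods and the labels, the authors trimmed single-end reads, mapped these by tophat or HISAT2 on mm10 and quantified genes in SeqMonk. The annotation and the use of strand are not given in the sources used here. A gene without reads carries 0.9 of a read, so whole reads could be recovered, and 3 reads are worth 0.109 to 0.439 rpm. Nons replicate 2 (4 samples) was not analysed here.

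Differences were tested with limma 3.58.1 in R 4.3.3 (lmFit, eBayes with trend). The 13296 genes tested averaged 0 or more in log2 rpm. The fit held a mean for each knockdown and day (8 residual degrees of freedom), with Benjamini-Hochberg adjustment over all genes and a threshold of 0.05. Same-day libraries of a gene's hairpins were compared and were not copies (chi-square per gene 2.70 to 110). Hairpin numbers are names and pair no cultures, so the replicate block was the culture series, as a random effect. The script was tested on simulated data.

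The genes named were the 8 members, genes of the pathway list past the threshold against Nons, its 3 largest rises and 3 largest falls by day, the targeted genes, and the 2 genes closest in correlation to each member. The members and lists were chosen with earlier results of these data known. The alternatives were no filter, a filter at 10 rpm, 1 added to rpm, centring on the median gene, quantile normalization, limma-voom on recovered reads, the replicate block, leaving out each hairpin (for days also Nons) and leaving out the smallest library. Exon lengths were those of GENCODE M21 and promoters those of RefSeq.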

Additional observations from a re-analysis of the deposited data

Results flagged for a closer look

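The effects of the knockdowns differed, by the direct test of one against the other, for 2 members. *Lifr* was higher in *Smarcc1* than in *Smarca4* knockdown by 0.64 and *Il6st* by 0.51 on the log2 scale (adjusted *p* = 0.0100 and 0.0235, limma, 8 libraries each). Over the alternatives the differences ranged from 0.58 to 0.69 and from 0.41 to 0.61, and the adjusted *p* from 0.00605 to 0.107 and from 0.00847 to 0.297.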

How the results depend on the processing

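Of the *Smarcc1* knockdown, 3 members were called against Nons, and 3 to 5 without 1 hairpin. For *Smarca4* knockdown 1 was called, 2 after centring on the median gene, 0 with the replicate block and 0 to 1 without 1 hairpin. Between the knockdowns 2 were called, 0 with the replicate block and 0 to 2 without 1 series. From day 4 to day 7 the count of 7 became 4 with a filter at 10 rpm, which removes *Lif* and *Gbx2* and leaves *Socs3* uncalled. On single days 1 call became 0 with the 10 rpm filter, with 1 added to rpm, after quantile normalization and in limma-voom, 0 to 1 without 1 hairpin and 3 without the smallest library. The sign turned for values that were not called: *Lif* in *Smarcc1* knockdown (-0.059 after quantile normalization), *Il6st* from day 4 to 7 (-0.11) and *Pim1* from day 6 to 7 (-0.042) after centring, and, between the knockdowns without 1 series, *Jak1* (-0.246 to 0.0203) and *Pim1* (-0.193 to 0.0945). The cause was not tested.

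Over all genes, 1412 were called in *Smarcc1* knockdown, 491 with the 10 rpm filter, 605 with the replicate block and 843 without Smarcc1.7. In *Smarca4* knockdown 892 were called, 266 with that filter, 258 with the block, 420 without Smarca4.4 and 277 without Smarca4.6. Between the knockdowns 544 were called, 182 with the filter, 105 with the block, 49 to 263 without 1 hairpin and 1067 without the smallest library. From day 4 to day 7, 8575 were called, and 5538 with the filter. The median of all genes over these days was 0.08, and -0.09 once libraries were centred. The correlation within culture series was 0.217. The targeted gene *Smarca4* was not called without Smarca4.6 (-1.59, adjusted *p* = 0.0685). Depth limits *Lif* and *Gbx2* most, with 12 and 16 reads in their lowest libraries, and 1 Nons library a day limits every comparison with Nons.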
